A study of Mus musculus with 8 samples.

Results

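Expression of 8 genes of fatty acid uptake and lipid handling was followed in the livers of diet-induced obese (DIO) mice: Pparg, Cd36, Fabp2, Fabp4, Fabp5, Vldlr, Lpl and Lipc. They were chosen by symbol, as the nuclear receptor PPARgamma, proteins that bring fatty acids or lipoproteins into cells, and the lipases of plasma lipoproteins. All 8 were among the 26166 symbols of the count table and among the 12427 genes kept after a filter on low counts.

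IXA4 is a small molecule that activates the RNase IRE1 of the endoplasmic reticulum (ER) and thereby the transcription factor XBP1s. The livers came from 4 IXA4-treated and 4 vehicle-treated male C57BL/6N DIO mice, bought at 14 weeks of age and kept for 3 weeks before dosing on a diet with 60% of kcal as fat. IXA4 was injected intraperitoneally once a day at 50 mg/kg, and the vehicle was a mixture of DMSO, Kolliphor EL, ethanol and saline; the RNA was taken after 8 weeks. Both groups were obese, with no lean mice among these libraries. The comparison asks how the transcripts of fatty acid entry and lipoprotein hydrolysis stood after sustained dosing with IXA4.

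PPARgamma binds DNA with the retinoid X receptor, mostly at direct repeats of a nuclear receptor half-site, and turns on genes for fatty acid uptake and storage. It is the master regulator of fat cells, and in mice its level and that of its targets are known to rise in hepatocytes of fatty livers. CD36 takes up long-chain fatty acids at the cell surface, VLDLR binds triglyceride-rich lipoproteins, and the FABP proteins carry fatty acids through the cytosol. Lipoprotein lipase (LPL) hydrolyzes the triglycerides of chylomicrons and VLDL on the capillary wall, while hepatic lipase (LIPC), made by hepatocytes, acts on remnant particles and HDL in the liver sinusoids.

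RefSeq promoter windows of the assembly GRCm38.p6, which run from 250 bases before to 50 bases after an annotated start, were matched by symbol to 5 of the 8 genes, giving 9 windows for Pparg, Cd36, Fabp2, Vldlr and Lipc. The 4 windows that hold the letters AGGTCA, a nuclear receptor half-site, are shown with those letters in capitals, and that of Fabp2 is shown as a window without them. All run 5′ to 3′ along the gene's strand, and TGACCT in capitals is the half-site read on the other strand.
Pparg, chr6:115360894-115361193, plus strand: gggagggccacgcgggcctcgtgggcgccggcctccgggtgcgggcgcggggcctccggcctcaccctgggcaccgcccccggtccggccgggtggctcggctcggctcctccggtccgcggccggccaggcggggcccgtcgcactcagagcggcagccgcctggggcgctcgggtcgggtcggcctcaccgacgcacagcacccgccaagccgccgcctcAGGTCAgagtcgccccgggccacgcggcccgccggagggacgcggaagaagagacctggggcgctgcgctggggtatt
Pparg, chr6:115362099-115362398, plus strand: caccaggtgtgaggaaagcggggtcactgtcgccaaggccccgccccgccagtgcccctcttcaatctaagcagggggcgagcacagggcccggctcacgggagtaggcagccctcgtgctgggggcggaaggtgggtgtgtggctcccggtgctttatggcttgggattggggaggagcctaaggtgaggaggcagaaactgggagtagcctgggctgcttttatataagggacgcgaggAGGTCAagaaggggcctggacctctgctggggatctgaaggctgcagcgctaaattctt
Cd36, chr5:17835847-17836146, minus strand: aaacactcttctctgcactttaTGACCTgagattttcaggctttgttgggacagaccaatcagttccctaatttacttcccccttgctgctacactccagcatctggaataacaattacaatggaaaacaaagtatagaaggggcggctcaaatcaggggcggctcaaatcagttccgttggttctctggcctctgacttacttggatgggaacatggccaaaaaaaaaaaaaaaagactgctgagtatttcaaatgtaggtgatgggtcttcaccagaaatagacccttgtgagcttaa
Fabp2, chr3:122894822-122895121, plus strand: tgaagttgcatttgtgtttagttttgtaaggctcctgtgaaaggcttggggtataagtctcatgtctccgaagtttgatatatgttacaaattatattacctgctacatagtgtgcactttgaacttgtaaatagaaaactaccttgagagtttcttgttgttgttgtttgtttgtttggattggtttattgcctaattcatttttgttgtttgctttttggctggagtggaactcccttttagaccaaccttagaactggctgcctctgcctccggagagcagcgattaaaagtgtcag
Lipc, chr9:70934759-70935058, minus strand: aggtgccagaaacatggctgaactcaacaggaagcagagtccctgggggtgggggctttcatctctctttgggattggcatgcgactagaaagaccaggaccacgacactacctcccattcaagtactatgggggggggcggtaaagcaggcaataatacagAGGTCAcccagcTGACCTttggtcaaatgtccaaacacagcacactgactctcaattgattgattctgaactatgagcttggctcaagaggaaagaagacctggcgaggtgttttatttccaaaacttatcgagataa

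The half-site was searched on both strands and lay in 16.3% of the 32851 windows of all genes, so single matches are common. Cd36 carried 1 match and the Lipc window shown carried 2, on opposite strands. The full repeat AGGTCANAGGTCA, which contains the half-site at both ends, was found in 0.0396% of all windows and in 0 of the 9 windows here. The letters ACGTG, a core that XBP1s can bind, were found in 19.6% of all windows and again in 0 of the 9. These are matches of letters and not measured binding.

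Libraries of the IXA4 group held 16986915 to 18390185 counts and those of the vehicle group 17399049 to 17807573. The unit CPM is the usual depth-scaled read count, here with TMM-normalized library sizes, and replicates are numbered as the columns were, with no match to single animals. Dnajb9, an ER co-chaperone gene and XBP1s target, was at 78.8 to 129 CPM in IXA4-treated livers and at 18.8 to 24.0 CPM in vehicle-treated livers (log2 fold change 2.26, SE 0.16, adjusted p = 6.40e-05), so the library labels matched drug exposure. Of the genes tested, 452 were higher (3.64% of all) and 123 lower (0.99% of all) in IXA4-treated livers by edgeR's quasi-likelihood test at an adjusted p under 0.05. Summed hepatocyte markers stood at 80540 to 110086 CPM in IXA4-treated livers and 93581 to 119266 CPM in vehicle-treated livers. Alb made up most of these sums, at a mean of 85097 CPM with IXA4 and 88047 CPM with vehicle.

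Of the 8 genes, 0 passed the test in either direction, whereas 7 of the 8 estimates were negative. Their median log2 fold change was -0.33, beside -0.01 for all genes tested, of which 52.1% had a negative estimate. At an unadjusted p under 0.05, 1 of the 8, Pparg, was lower, against 8.03% of all genes; by DESeq2 the count was 2, Pparg and Vldlr, and with no filter on low counts it was 2, Pparg and Cd36. It was 3 without vehicle replicate 3, where Cd36 and Fabp2 joined Pparg, and 2 without IXA4 replicate 2 (with Fabp2) or IXA4 replicate 3 (with Cd36). The share of 8.03% is from edgeR's fit of all 8 livers after the filter. It was not counted in the other fits, so their counts have no share to be read against. Only Pparg had groups that did not overlap, with all IXA4 values below all vehicle values, a pattern seen in 5.24% of all genes. In bulk liver RNA, fewer cells of a type and less RNA per cell cannot be told apart.

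**Figure D1:**
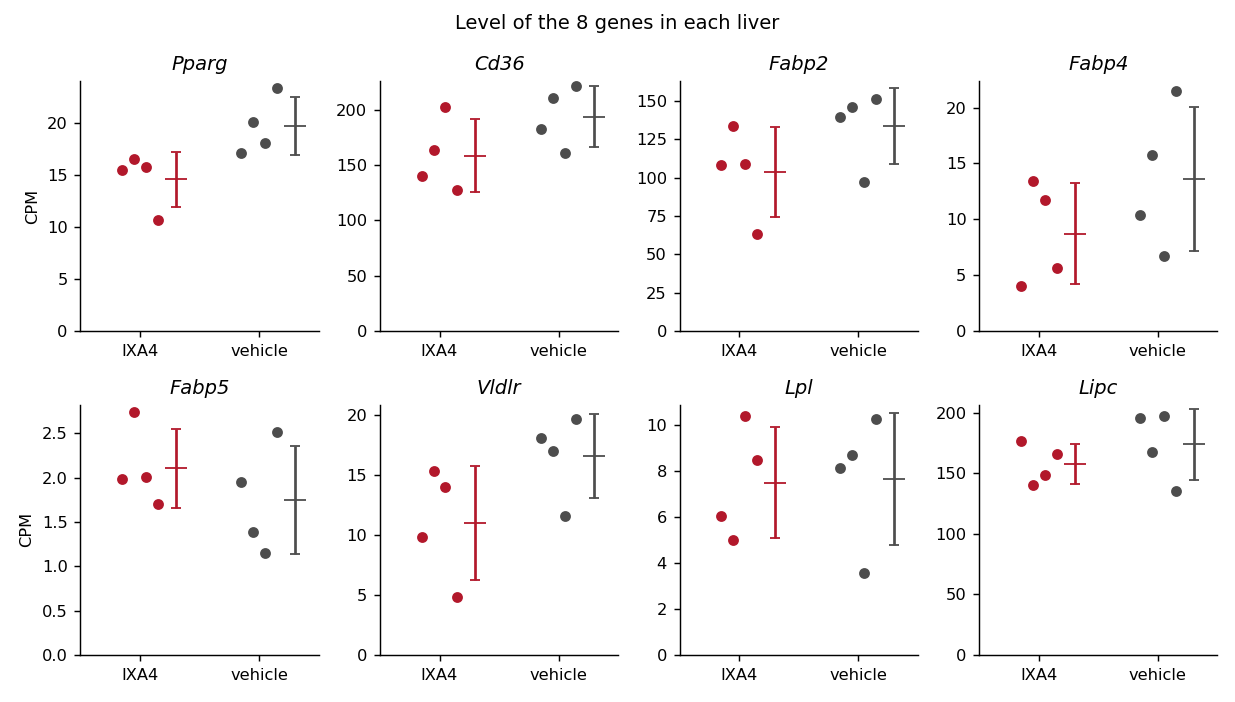
CPM of each gene in each liver (points, replicates 1 to 4 from left to right), with the group mean and SD beside them, IXA4 in red and vehicle in grey. The groups overlap for every gene but Pparg, where the IXA4 values run from 10.7 to 16.5 CPM and the vehicle values from 17.1 to 23.4 CPM.

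Pparg, which encodes the receptor itself, was at 15.4, 16.5, 15.7 and 10.7 CPM in IXA4-treated livers, against 17.1, 20.1, 18.1 and 23.4 CPM in vehicle-treated livers. The highest IXA4 value lay just under the lowest vehicle value, and replicate 4 of IXA4 stood lowest of all 8. Group means were 14.6 ± 2.64 CPM with IXA4 and 19.6 ± 2.77 CPM with vehicle (SD, n = 4 each) and the log2 fold change was -0.43 (SE 0.15, 95% interval -0.75 to -0.11). In edgeR's fit across all genes p was 0.0121 unadjusted and 0.130 adjusted, so Pparg did not pass. Without IXA4 replicate 4 the log2 fold change was -0.31 (edgeR, adjusted p = 0.232). The gene lies on the plus strand of chromosome 6 at 115311239 to 115440419 in the mouse assembly NCBI build 37, the build the counts were made on, and its 2 annotated transcripts were not told apart by the counts. Positions of the other genes are on the same build.

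Cd36, the fatty acid translocase, was among the more abundant of the 8, with 140.4, 163, 203 and 128 CPM in IXA4-treated livers, against 182, 211, 161 and 221 CPM in vehicle-treated livers. Replicates 2 and 3 of IXA4 lay within the vehicle range. Replicate 3 of vehicle, the lowest of its group, lay below both of them, and replicate 1 of vehicle lay below replicate 3 of IXA4. The means were 159 ± 32.9 CPM with IXA4 and 194 ± 27.4 CPM with vehicle (SD, n = 4 each), with a log2 fold change of -0.29 (SE 0.15, interval -0.61 to 0.03, adjusted p = 0.309). With 1 library left out the estimate ran between -0.43 (adjusted p = 0.111, without IXA4 replicate 3) and -0.20 (adjusted p = 0.544, without IXA4 replicate 4). Cd36 lies on the minus strand of chromosome 5 at 17287508 to 17394777.

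Vldlr, the VLDL receptor gene, had 9.89, 15.4, 14.0 and 4.82 CPM in IXA4-treated livers, against 18.2, 17.0, 11.6 and 19.7 CPM in vehicle-treated livers. It was lowest in replicate 4 within IXA4 and in replicate 3 within vehicle, and the groups overlapped through vehicle replicate 3. The log2 fold change of -0.59 had an SE of 0.33 and an interval of -1.34 to 0.15 (adjusted p = 0.372), which is a fold of 0.396 to 1.11. The highest IXA4 value was 3.19 times the lowest, compared with 1.70 times among vehicle livers. Vldlr is on chromosome 19 at 27290974 to 27328721, plus strand.

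The 3 fatty acid binding protein genes differed in level, in spread and in sign. Fabp2, known as the intestinal FABP, had 109, 134, 109 and 63.5 CPM in IXA4-treated livers, against 139.8, 146, 97.0 and 151 CPM in vehicle-treated livers. Again replicate 4 of IXA4 and replicate 3 of vehicle were lowest in their groups, and vehicle replicate 3 fell within the IXA4 range. The log2 fold change was -0.37 (SE 0.22, interval -0.86 to 0.13, adjusted p = 0.411). Fabp2 lies on chromosome 3 at 122597990 to 122602424 and overlaps the lincRNA gene 4933405D12Rik on the opposite strand, and the strand setting of the counts is not given in the sources used here.

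The level of Fabp2 did not come with enterocyte transcripts. Of the 6 enterocyte markers 0 passed the filter, Alpi, Cdx1, Cdx2 and Sis had 0 counts in all 8 libraries, and the summed markers reached at most 0.175 CPM in IXA4-treated livers and 0.222 CPM in vehicle-treated livers. A count of 0 allows up to 3 counts in a library.

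Fabp4, the FABP of adipocytes that macrophages and endothelium also express, had 4.07, 13.4, 11.7 and 5.70 CPM in IXA4-treated livers, against 10.3, 15.8, 6.72 and 21.5 CPM in vehicle-treated livers. IXA4 replicates 1 and 4 and vehicle replicate 3 were low, and the groups overlapped. The spread was the largest of the 8, with a coefficient of variation of 52.1% within IXA4 and 47.5% within vehicle. The estimate of -0.64 on the log2 scale was the most negative of the 8 and also the least precise (SE 0.49, interval -1.78 to 0.50, adjusted p = 0.534). It was -0.33 without vehicle replicate 4 and -0.40 without IXA4 replicate 1, where Vldlr, at -0.50 and -0.54, was the most negative, as it was without vehicle replicate 2 (Vldlr -0.58, Fabp4 -0.56). Fabp4 lies on chromosome 3 at 10204347 to 10208576, minus strand.

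Fabp5, the epidermal FABP, was the only one of the 8 with a positive estimate. It had 1.98, 2.74, 2.01 and 1.70 CPM in IXA4-treated livers, against 1.95, 1.39, 1.15 and 2.51 CPM in vehicle-treated livers, and the groups overlapped over most of their ranges. These levels rest on 19 to 47 counts per library, and the lowest, 19 counts in vehicle replicate 3, has an exact Poisson interval of 11.4 to 29.7 counts that covers counting error only. The log2 fold change was 0.26 (SE 0.28, interval -0.34 to 0.85, adjusted p = 0.662). Near-identical processed copies of Fabp5 exist in the mouse genome and how reads with several matches were counted is not stated in the sources read, which leaves its level uncertain. Fabp5 lies close to Fabp4, at 10012548 to 10016607 on chromosome 3, plus strand.

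Among the 8, the 2 lipase genes had the smallest estimates in size in the fit of all 8 livers. Lpl had 6.05, 5.01, 10.4 and 8.49 CPM in IXA4-treated livers, against 8.13, 8.67, 3.57 and 10.3 CPM in vehicle-treated livers. The groups overlapped over most of their ranges, and vehicle replicate 3 was the lowest of all 8. The log2 fold change was -0.04 (SE 0.32, interval -0.75 to 0.67, adjusted p = 0.963), which is a fold of 0.596 to 1.60. Its sign turned in 4 of the 8 fits that left out 1 library. Dropping IXA4 replicate 1 gave 0.06 and dropping IXA4 replicate 2 gave 0.12, while dropping vehicle replicate 2 gave 0.03 and dropping vehicle replicate 4 gave 0.13. Dropping vehicle replicate 3, the lowest liver, gave -0.26 (edgeR, adjusted p = 0.619), larger in size than Fabp5 in that fit (0.12). Lpl lies on chromosome 8 at 71404390 to 71431347, plus strand.

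Lipc, the hepatocyte's own lipase, was at 177, 141, 148 and 166 CPM in IXA4-treated livers, against 195, 168, 198 and 135 CPM in vehicle-treated livers. The groups overlapped, and vehicle replicate 4 was the lowest of all 8 livers. Lipc was the steadiest of the 8 genes within IXA4, with a coefficient of variation of 10.4%, and its highest IXA4 value was 1.26 times its lowest. The log2 fold change was -0.14 with the narrowest interval, -0.41 to 0.13 (SE 0.13, adjusted p = 0.597), which is a fold of 0.751 to 1.10. Lipc lies on the minus strand of chromosome 9 at 70645936 to 70800033 and overlaps the opposite-strand gene Gm3436, whose reads could not be told apart from its own if strand was not used.

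**Figure D2:**
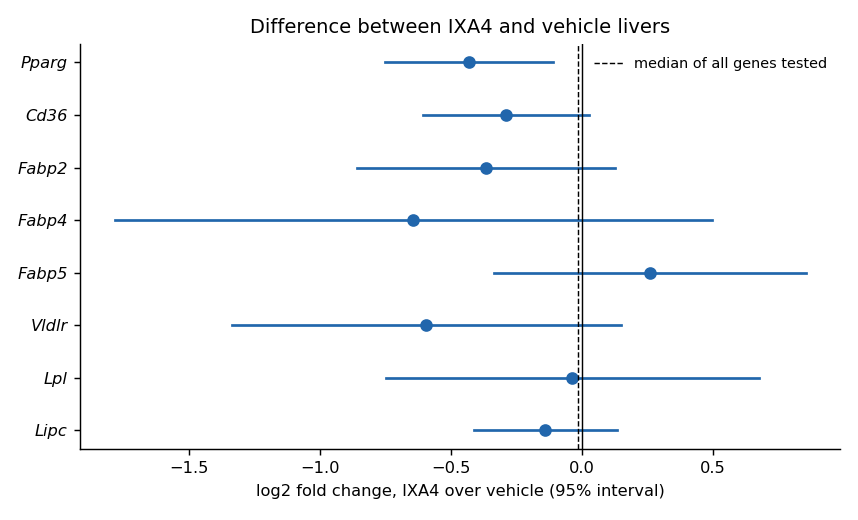
Log2 fold change of IXA4 over vehicle for each gene (points) with its 95% interval (lines), and the median of all 12427 genes tested (dashed line). The interval of Pparg, -0.75 to -0.11, lies below 0, while those of the other 7 genes include 0.

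Per kilobase of the longest coding transcript, the levels fell into the same upper order in both groups. In IXA4-treated livers Fabp2 averaged 107 ± 30.3 CPM per kilobase, Lipc 82.3 ± 8.58, Cd36 44.4 ± 9.22, Fabp4 13.7 ± 7.13 and Pparg 7.85 ± 1.42 (SD, n = 4). In vehicle-treated livers Fabp2 averaged 138 ± 25.7 CPM per kilobase, Lipc 90.6 ± 15.2, Cd36 54.3 ± 7.68, Fabp4 21.3 ± 10.1 and Pparg 10.6 ± 1.49 (SD, n = 4). Fabp2 and Lipc overlapped in both groups, as did Fabp4 and Pparg, so the order within these pairs is not settled. Fabp5, Lpl and Vldlr were at 1.38 to 2.13 CPM per kilobase with IXA4 and 1.77 to 2.08 with vehicle and overlapped each other.

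Within the groups, several of the 8 genes went up and down together from liver to liver. After each group's mean log2 CPM was subtracted, 21 of the 28 pairs of genes had a positive Pearson correlation over the 8 livers, and 16 were over 0.5. The highest was between Fabp2 and Vldlr (r = 0.953, n = 8 livers), and Pparg had r = 0.837 with both. Lpl was close to unrelated to Pparg (r = 0.0642) and nearer to Cd36 (r = 0.587). Lipc went the other way from all 7 others, with r between -0.466 for Lpl and -0.902 for Fabp4. The points share library depth and composition, and these correlations are descriptions only.

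In this spread 2 libraries stood out. IXA4 replicate 4 was the lowest of its group for 5 of the 8 genes, and vehicle replicate 3 was the lowest of its group for 6. In IXA4 replicate 4, Vldlr lay 1.05 and Fabp2 0.66 log2 units under the group mean, while Lipc lay 0.08 above it. In vehicle replicate 3, Lpl lay 0.98, Fabp4 0.87 and Vldlr 0.48 log2 units under the mean, while Lipc lay 0.20 above it.

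The same 2 libraries stood lowest for the lipid droplet genes Cidea and Cidec. Cidea, whose protein enlarges lipid droplets and is a marker of fatty liver in mice, had 5.71, 18.2, 10.1 and 0.110 CPM in IXA4-treated livers, against 17.3, 38.8, 2.42 and 77.0 CPM in vehicle-treated livers. Cidec, a related droplet protein gene and known PPARgamma target, had 10.1, 17.4, 10.8 and 2.74 CPM in IXA4-treated livers, against 20.4, 35.3, 5.63 and 55.6 CPM in vehicle-treated livers. The groups overlapped for both, for Cidec through vehicle replicate 3 alone and for Cidea also through vehicle replicate 1, and neither passed the test, with log2 fold changes of -2.00 (SE 1.20, adjusted p = 0.433) and -1.52 (SE 0.78, adjusted p = 0.361). Cidec, and Plin4 in the plot of deviations, were picked after their values were seen. With both libraries left out, an alternative added after the data were seen, 0 of the 8 genes passed, the lowest adjusted p values were 0.140 for Fabp2 and 0.146 for Vldlr, and 3 were lower at an unadjusted p under 0.05. The share of all genes at that p was not counted in this fit.

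IXA4 replicate 4 also had the highest level of Hspa5, the BiP chaperone gene, named after its values were seen, at 2516 CPM, beside 906 to 1233 CPM in the other IXA4 livers and 353 to 458 CPM in vehicle-treated livers. The marker sums did not run the same way in the 2 low libraries. Summed hepatocyte markers, mostly Alb, were the lowest of the 8 libraries in IXA4 replicate 4, at 80540 CPM, and the highest in vehicle replicate 3, at 119266 CPM. Single markers differed in IXA4 replicate 4. Alb, Ttr and Apoa1 were the lowest of all 8 there, at 67017.5, 4103 and 6229 CPM. Hnf4a was the highest of all 8 there, at 229 CPM, and Cps1 the highest of the IXA4 group, at 1956 CPM. Macrophage markers were the highest of the IXA4 group in IXA4 replicate 4, at 426 CPM, and the lowest of all in vehicle replicate 3, at 204 CPM, where endothelial markers were also the lowest of the vehicle group, at 76.7 CPM. The part of these differences in the levels of the 8 genes was not tested.

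**Figure D3:**
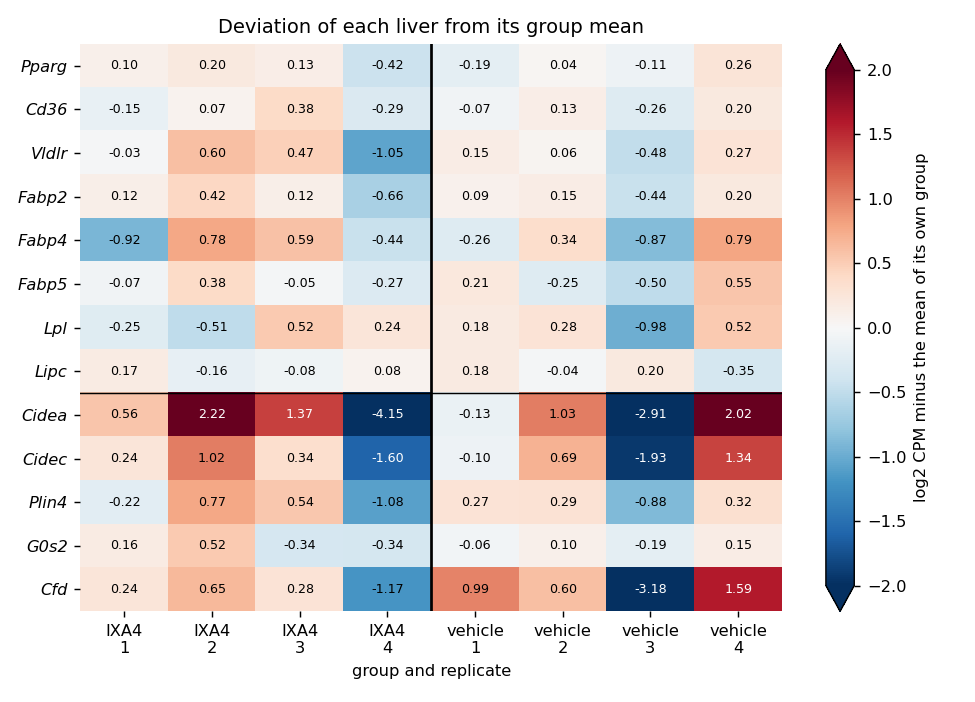
Log2 CPM of each gene in each liver minus the mean of its own group, for the 8 genes (above the line) and for Cidea, Cidec, Plin4, G0s2 and the adipocyte marker Cfd, with IXA4 livers on the left and vehicle livers on the right. Blue cells, below the group mean, gather in IXA4 replicate 4 and vehicle replicate 3, and the row of Lipc runs opposite to most others. Below the line, Cidec and Plin4 were picked after their values were seen, and Cfd lay outside the naming rule. Those rows are therefore no independent sign of a pattern. The storage gene Plin2, not drawn, was lowest in replicate 2 of each group, at 475 CPM with IXA4 and 509 CPM with vehicle.

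The genes most like each of the 8 in this spread were sought among 11451 genes with a mean of at least 1 CPM, by the same correlation over the 8 livers. Nearest to Pparg were E330011O21Rik (r = 0.996), Coq7 (r = 0.995) and 2010012O05Rik (r = 0.982), and nearest to Fabp2 were Tceal8 (r = 0.980), Cidea (r = 0.978) and Cyp2b9 (r = 0.978). Fabp4 was nearest to Mgll (r = 0.993), the monoglyceride lipase gene, followed by 4933433P14Rik and Rspo3 (r = 0.973 and 0.971). Vldlr was nearest to Zfp128, Arhgap24 and Rarb (r = 0.972 to 0.976), and Cd36 to Pdk1, Iars2 and O3far1 (r = 0.965 to 0.973). Lpl was nearest to Tspan7, Mrpl10 and Aldh3a2 (r = 0.974 to 0.994), Lipc to Gm2788, Nr2f2 and Scap (r = 0.972 to 0.984), and Fabp5 to Haus8, Pts and Mapk8ip1 (r = 0.968 to 0.981). With 8 livers and this many genes, values this high are picks from the top of a long list.

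Among 12 tested genes of PPAR-responsive lipid storage, 1 fell, 0 rose and 11 did not pass, with a median log2 fold change of -0.25. The gene that fell was G0s2, an inhibitor of the triglyceride lipase ATGL and a PPAR target. It had 51.6, 65.9, 36.4 and 36.3 CPM in IXA4-treated livers, against 81.1, 90.1, 73.8 and 93.5 CPM in vehicle-treated livers, with no overlap (log2 fold change -0.83, SE 0.18, adjusted p = 0.0266). Its call was lost, with adjusted p up to 0.0798, in the fits without IXA4 replicate 3 or 4 and without vehicle replicate 1, 2 or 4, and without both low libraries. Plin2, the lipid droplet coat gene and the most abundant that did not pass, averaged 523 ± 69.7 CPM with IXA4 and 568 ± 39.6 CPM with vehicle (SD, n = 4 each; log2 fold change -0.12).

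Of the 19 partners and coregulators of the PPARs, all tested, 1 fell and 0 rose. Ppargc1a, the coactivator PGC-1alpha first found as a partner of PPARgamma, had 10.6, 13.4, 8.48 and 6.63 CPM in IXA4-treated livers, against 19.6, 17.8, 23.6 and 16.8 CPM in vehicle-treated livers. The groups were apart by more than their spread (log2 fold change -0.99, SE 0.19, adjusted p = 0.0133), and the call held in all 15 alternative fits, with adjusted p up to 0.0457. The other 18 did not pass, among them the receptor genes Ppara (log2 fold change -0.33, adjusted p = 0.161) and Rxra (-0.29, adjusted p = 0.256), which are named after their values were seen. Cebpb, the most abundant of them, had an estimate of 0.25 on the log2 scale (adjusted p = 0.338).

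Of the 7 other genes of the FABP family, only 2 passed the filter. Fabp7, the brain FABP, was low at 0.848, 2.57, 1.38 and 1.37 CPM in IXA4-treated livers, against 3.31, 3.11, 2.84 and 3.93 CPM in vehicle-treated livers, and fell with a log2 fold change of -1.10 (SE 0.29, adjusted p = 0.0471). That call was lost in 10 of the 15 alternatives, among them 7 of the 8 that left out 1 library, where only the fit without IXA4 replicate 2 kept it; the adjusted p reached 0.124. Fabp1, the main FABP of liver, averaged 5369.5 ± 1481 CPM with IXA4 and 6993 ± 906 CPM with vehicle (SD, n = 4 each; log2 fold change -0.38, adjusted p = 0.279).

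The lists nearest to fatty acid and lipoprotein entry held 0 calls. Of 10 tested genes of fatty acid transport and activation, 0 passed, with a median log2 fold change of -0.05, and the most abundant, the acyl-CoA synthetase gene Slc27a2, averaged 2134 ± 164 CPM with IXA4 and 2179 ± 284 CPM with vehicle (SD, n = 4 each). Of 13 tested genes for other lipoprotein receptors and their regulators, 0 passed, with a median of -0.11. Lrp1, the remnant receptor gene and the most abundant there, averaged 719 ± 203 CPM with IXA4 and 626 ± 96.3 CPM with vehicle (SD, n = 4 each).

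Among 15 genes for regulators of the lipases of the circulation, with the endothelial lipase itself counted in, 2 fell and 0 rose, with a median of -0.18. Lipg, the endothelial lipase gene, had 12.4, 19.9, 9.23 and 8.98 CPM in IXA4-treated livers, against 22.1, 27.8, 32.3 and 26.3 CPM in vehicle-treated livers (log2 fold change -1.10, SE 0.24, adjusted p = 0.0318). The call was lost in 8 of the 15 alternatives: without any 1 of IXA4 replicates 1, 3 and 4 or vehicle replicates 2, 3 and 4, with no filter on low counts, and without both low libraries, where the adjusted p reached 0.130. Pcsk6, a proprotein convertase gene whose product cleaves endothelial lipase and LPL, had 86.5, 80.9, 94.5 and 91.7 CPM in IXA4-treated livers, against 122, 130.1, 104 and 127 CPM in vehicle-treated livers (log2 fold change -0.45, SE 0.10, adjusted p = 0.0190). Leaving out IXA4 replicate 1, or vehicle replicate 1, 2 or 4, lost the call, with adjusted p up to 0.0759. Apoc1, an apolipoprotein gene and the most abundant that did not pass, had an estimate of -0.18.

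Gpihbp1, whose product carries LPL to the capillary surface, is named here after its values were seen. It had 6.22, 18.4, 14.4 and 10.4 CPM in IXA4-treated livers, against 22.6, 26.2, 18.0 and 38.0 CPM in vehicle-treated livers, and did not pass (log2 fold change -1.09, SE 0.35, adjusted p = 0.142). The endothelial markers, cells in which Gpihbp1 is known to be made, summed to 63.5 to 90.3 CPM in IXA4-treated livers and 76.7 to 139.8 CPM in vehicle-treated livers. All 8 endothelial markers had negative estimates, with a median of -0.63 on the log2 scale, and 1 of them, the VEGF receptor gene Kdr, fell (log2 fold change -0.93, adjusted p = 0.0115). The part of this in the levels of Lipg, Gpihbp1, Cd36 and Fabp4 was not tested.

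Among 10 tested intracellular lipases, 1 fell (0.99% of all genes fell) and 0 rose, with a median of -0.28. Groups that did not overlap, with IXA4 lower, were seen for 5.24% of all genes. Such groups were seen for 4 of these 10, all from the Ces1 cluster (Ces1d, Ces1e, Ces1f and Ces1g), and for none of the other lipases tested. They were also seen for 4 of the 15 lipase regulators, with Lipg counted in. The lists of 12 lipid storage genes, 19 PPAR partners and 2 other FABP genes held 2, 1 and 1. Angptl4 was counted both among the storage genes and among the lipase regulators. Those of 13 lipoprotein receptor genes and 10 fatty acid transport genes held 1 and 0. Ces1e, a carboxylesterase gene, had 247, 238, 239 and 156 CPM in IXA4-treated livers, against 346, 279, 305 and 347 CPM in vehicle-treated livers (log2 fold change -0.54, SE 0.14, adjusted p = 0.0482). The call was lost in 11 of the 15 alternatives, among them all fits without 1 library except that without IXA4 replicate 4, with adjusted p up to 0.148. Ces1d, a triglyceride hydrolase gene and the most abundant of the list, averaged 1194 ± 256 CPM with IXA4 and 1723 ± 171 CPM with vehicle (SD, n = 4 each; log2 fold change -0.53, adjusted p = 0.0655). Genes of the Ces1 cluster are close copies, and reads could have been split between them.

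**Figure D4:**
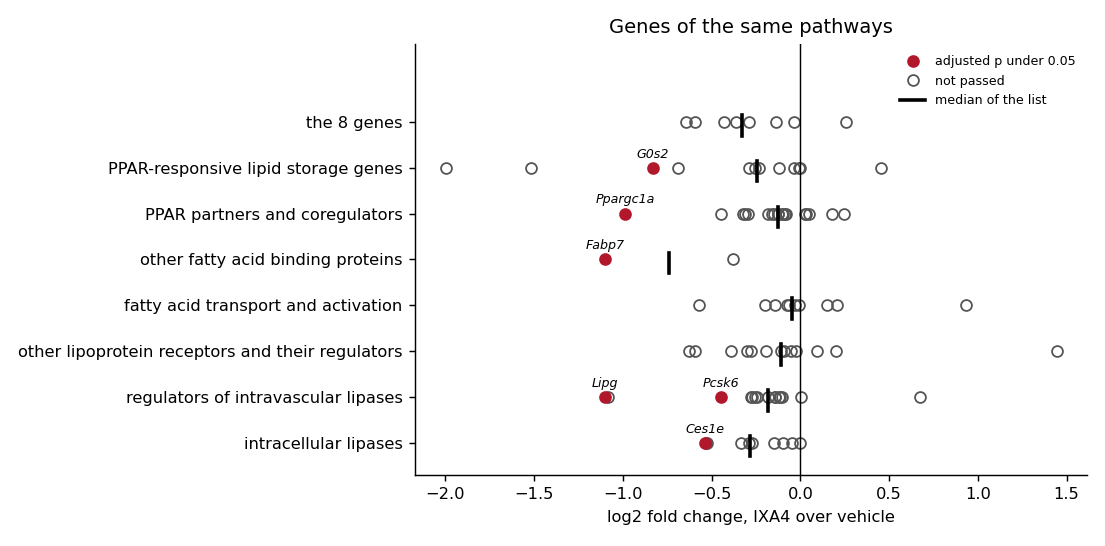
Log2 fold change of IXA4 over vehicle for every tested gene of the 8 and of each pathway list (circles), with red circles for genes at an adjusted p under 0.05 and a black bar for the list's median. Calls were made for G0s2, Ppargc1a, Fabp7, Lipg, Pcsk6 and Ces1e, all of them lower with IXA4, and for 0 of the 8 genes.

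Several of the 8 genes are also made outside hepatocytes, so markers of other cells were read beside them. Adipocytes, the cells richest in Fabp4, Cd36 and Lpl, left few transcripts: Adipoq and Lep had 0 counts in all 8 libraries, and of 6 markers only Cfd passed the filter. Cfd had 8.65, 11.5, 8.88 and 3.18 CPM in IXA4-treated livers, against 24.9, 18.9, 1.27 and 37.8 CPM in vehicle-treated livers, lowest in the same 2 libraries as Cidea (log2 fold change -1.37, SE 0.85, adjusted p = 0.451). With Adipoq and Lep at 0, Cfd made up most of the summed adipocyte markers, which were at 3.34 to 11.8 CPM with IXA4 and 1.27 to 38.0 CPM with vehicle.

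Macrophage markers, 0 of 10 of which passed the test, summed to 242 to 426 CPM in IXA4-treated livers and 204 to 444 CPM in vehicle-treated livers. Those of lipid-associated macrophages, 0 of 5 of which passed, summed to 29.7 to 74.3 CPM with IXA4 and 29.7 to 45.2 CPM with vehicle. Stellate cell markers summed to 156 to 185 CPM with IXA4 and 186 to 249 CPM with vehicle, and 2 of 7, Reln and Colec11, fell. These sums came close to overlap, with a highest IXA4 value of 184.6 CPM and a lowest vehicle value of 186.1 CPM. Dcn made up most of them, at a mean of 125 CPM with IXA4 and 142 CPM with vehicle, and did not pass (edgeR, adjusted p = 0.425). Of the 7 estimates 6 were negative, and that of Pdgfrb was 0.24. Cholangiocyte markers were at 8.43 to 11.9 CPM with IXA4 and 4.61 to 5.62 CPM with vehicle, where Krt19 rose, and mesothelial markers were at 8.49 to 37.1 CPM with IXA4 and 6.50 to 19.8 CPM with vehicle, where Upk1b rose. The part of these shifts in the levels of the 8 genes was not tested.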

How the data were processed

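The authors sequenced liver RNA of 8 DIO mice, 4 given IXA4 and 4 given vehicle, as single-end 50 bp reads and aligned them with Lasergene SeqManPro to NCBI build 37 of the mouse. The deposited counts are whole numbers of total reads per gene symbol from ArrayStar with QSeq, and 7170 symbols had no count. Annotation release, strand setting and the rule for reads with several matches: not given in the sources used here. A deposited table of the authors' own comparison, made with DESeq, holds group means, fold changes and p-values, and its values were not used.

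Count columns were assigned to groups by their headings, which name vehicle or carry a number code. The code was taken as IXA4 because the authors' own comparison uses it for IXA4 over vehicle. Genes were kept by filterByExpr (minimum count 10, minimum total 15), scaled by TMM, then compared by the quasi-likelihood F test of edgeR (robust, no covariate), with Benjamini-Hochberg adjustment over the 12427 genes kept. Standard errors are those implied by the F statistic. Log2 CPM used a prior count of 2. The versions used were edgeR 4.0.16 and DESeq2 1.42.0, with limma 3.58.1, under R 4.3.3, and the fit was tested on simulated data. P-values rest on the spread between 4 livers per group, moderated by edgeR's fit across all genes.

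The 8 genes, the lists and the tests were chosen with earlier results of these data known, so the lists are not independent evidence. Named were the 8 genes, Dnajb9, in each pathway list the genes past the threshold (at most 4 per direction) and the most abundant that did not pass, marker genes at 0 or past the threshold, and the 3 genes most correlated with each of the 8. Positions came from GENCODE vM1 by symbol, which is not the authors' annotation, and promoter sequences from RefSeq on GRCm38.p6. Alternatives were DESeq2's size factors, total counts, no filter, 10 counts in every library, DESeq2, no robust estimation and each library left out in turn. Added after the data were seen was a fit without the 2 libraries lowest in their groups for Cidea and Cidec (the low libraries). Not all genes of the lipid storage list were low in them.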

Additional observations from a re-analysis of the deposited data

Results flagged for a closer look

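Single libraries stood apart from the other 3 of their group in 3 of the 44 groups examined, 2 for each of 22 named genes, and chance alone flags about 1 in 20. Ces1e was at 156 CPM in IXA4 replicate 4, while the other IXA4 livers were at 238 to 247 CPM. Kdr was at 8.23 CPM in vehicle replicate 3, while the other vehicle livers were at 11.5 to 12.1 CPM. Upk1b was at 1.69 CPM in vehicle replicate 4, while the other vehicle livers were at 0.759 to 0.847 CPM. None of the 16 groups of the 8 genes themselves had such a library.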

How the results depend on the processing

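None of the 8 genes passed the test in any of the 15 alternatives, where the lowest adjusted p was 0.0926, for Pparg with no filter on low counts. The direction held in all of them for 7 of the 8, and Lpl, which turned without IXA4 replicate 1 or 2 or vehicle replicate 2 or 4, ranged over -0.26 to 0.13 on the log2 scale with 1 library left out. The same fits gave -0.49 to -0.31 for Pparg, -0.43 to -0.20 for Cd36, -0.79 to -0.34 for Vldlr, -0.50 to -0.19 for Fabp2, -0.92 to -0.33 for Fabp4, 0.12 to 0.48 for Fabp5 and -0.24 to -0.06 for Lipc. The weakest values of Pparg, Cd36, Vldlr and Fabp2 were those without IXA4 replicate 4. That of Fabp5 was without IXA4 replicate 2 (0.12 without vehicle replicate 3 too) and that of Lipc was without vehicle replicate 3. Over the same fits the count of all genes higher with IXA4 was 261 to 613 and the count lower 43 to 162. DESeq2 called 636 genes higher and 256 lower. With total counts in place of TMM, 373 genes were higher and 131 lower, and the median of all genes was -0.05 rather than -0.01 on the log2 scale. The number of the 8 lower at an unadjusted p under 0.05 was 3 without vehicle replicate 3 (Pparg, Cd36 and Fabp2) and without both low libraries (Pparg, Fabp2 and Vldlr). The share of all genes at that p was not counted in these fits. Among other genes, Krt19 lost its call in 7 of the 15 alternatives, Upk1b in 5 and Hspa5 in 4, and those of Ppargc1a, Kdr, Reln, Colec11, Dnajb9 and Sec24d held in all. The cause of these changes was not tested. Counts of 19 to 47 per library limit Fabp5, and 4 livers per group limit the rest. No paired analysis was made, as the groups were separate mice and no pairing is described. The numbers in the count table are not the animals' numbers, and the labels of the groups share only 1 number.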
